A study of Macaca fascicularis with 16 samples.

Results

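The expression of 10 interferon-stimulated genes was followed in mammary tissue of cynomolgus macaques: IRF7, IFIH1, ISG15, MX2, OAS2, BST2, SAMD9L, PARP14, IFI35 and IFI44. They were taken as every probe set on the array that the platform annotation gives 1 of these symbols and no other, which found 18 of 52865 probe sets. A probe set is a group of short probes read together as 1 value. Of the 18, 15 were bright enough to be tested, among 28704 tested probe sets in all, and they cover all 10 genes among 10452 tested genes. The 10 genes were chosen with earlier results of these data known. Their counts beside the shares of all probe sets are therefore a description, not a test.

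All 16 animals were female, post-menopausal and ovariectomized, so that the ovaries supplied no hormone in any group, controls included. Each of the 4 groups held 4 animals with 1 Affymetrix rhesus macaque array each. The control group had no treatment. The CEE group was given 0.042 mg/kg of conjugated equine estrogens, a mixture of estrogens from horses. The CEE+MPA group was given the same estrogen dose with 0.167 mg/kg of medroxyprogesterone acetate, a synthetic progestin. The tibolone group, which the labels also call OD14-HIGH, was given 0.2 mg/kg of tibolone, a synthetic steroid whose metabolites act on steroid hormone receptors. The comparison of hormone replacement treatments is the purpose that the title of the study gives.

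Cells that sense foreign nucleic acid or other danger release interferons, which bind receptors on the same and on neighbouring cells. The receptors act through JAK kinases to switch on a large set of genes that restrict viruses. Many of these genes are also transcribed at a low level in tissue without infection, in epithelial, stromal and immune cells alike.

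Values are signals, the scaled linear brightness of a probe set, and errors of signals are standard deviations over 4 animals. Differences are log2 fold changes of signal plus 16 with standard errors from 1 limma model over all 16 arrays, in which a percentage is the ratio of the groups on that same scale. A difference passed the test where the p-value adjusted by Benjamini and Hochberg over the 28704 probe sets was under 0.05. The precision is limited by the number of arrays. Genes are ordered below by role, and no probe set's level is compared with that of another, since brightness differs between probes.

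After trimming 2% of values at each end, the mean signal was 250.01 or 250.02 on every array, so likeness in mean brightness is not informative. The arrays had 48.6% to 51.8% of probe sets above a signal of 60.2. The CEE+MPA arrays, at 48.6% to 49.8%, all lay below the tibolone arrays, at 50.1% to 51.8%. Of 21 luminal epithelial markers, 16 were tested, among them KRT8, KRT18 and EPCAM, so that these genes of the labelled tissue were above the filter. CDH1 and ESR1 were on the array but below the filter, and the other 3 were not analysed here. Markers of skeletal muscle stood out on control replicate 1, CEE+MPA replicate 1 and tibolone replicates 2 and 3. The bacterial spike-in control dap was at 2 levels, a split of the arrays with no counterpart in the labels. A low set held control 3 and 4, CEE 1 and 2, and CEE+MPA 1 and 4, and a high set held the other 2 arrays of those groups and all 4 tibolone arrays. The GAPDH ratio compares the 3' end of that transcript with the other end, on a log2 scale, as a measure of RNA quality. It went largely with the dap level. Over the arrays of low dap it spanned 0.04 to 0.26. Among those of high dap it was 0.58 to 0.92, apart from tibolone replicate 2, at 0.11. The split is thus not one of the spike-in alone, and its source was not tested. Values within the sets and without the arrays of high muscle signal are given beside the results they touch. In whole tissue, fewer cells of a type and less RNA per cell cannot be told apart.

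By the group mean of log2(signal + 16), all 10 genes were lower with CEE and with CEE+MPA than in the control and tibolone groups. For IFI44 this holds on that scale alone, since its mean signal was 566 with CEE and 552 with tibolone. On the log2 scale the lowest group mean was that of CEE+MPA in 6 genes and that of CEE in 4, and the highest was that of tibolone in 6 and that of the control in 4. The order of the 2 estrogen groups was close in IRF7 (mean signal 108 with CEE and 104 with CEE+MPA) and OAS2 (67.1 and 65.9), where CEE was lower on the log2 scale and CEE+MPA by mean signal. The order CEE+MPA, CEE, control, tibolone from low to high held for ISG15, MX2, BST2 and PARP14. Neighbours in these orders did not pass the test against each other for any of the 10 genes. The differences that passed lay between groups further apart: BST2, SAMD9L and IFI44 were lower with CEE+MPA than in controls, and IRF7, BST2 and PARP14 were higher with tibolone than with CEE+MPA.

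**Figure D1:**
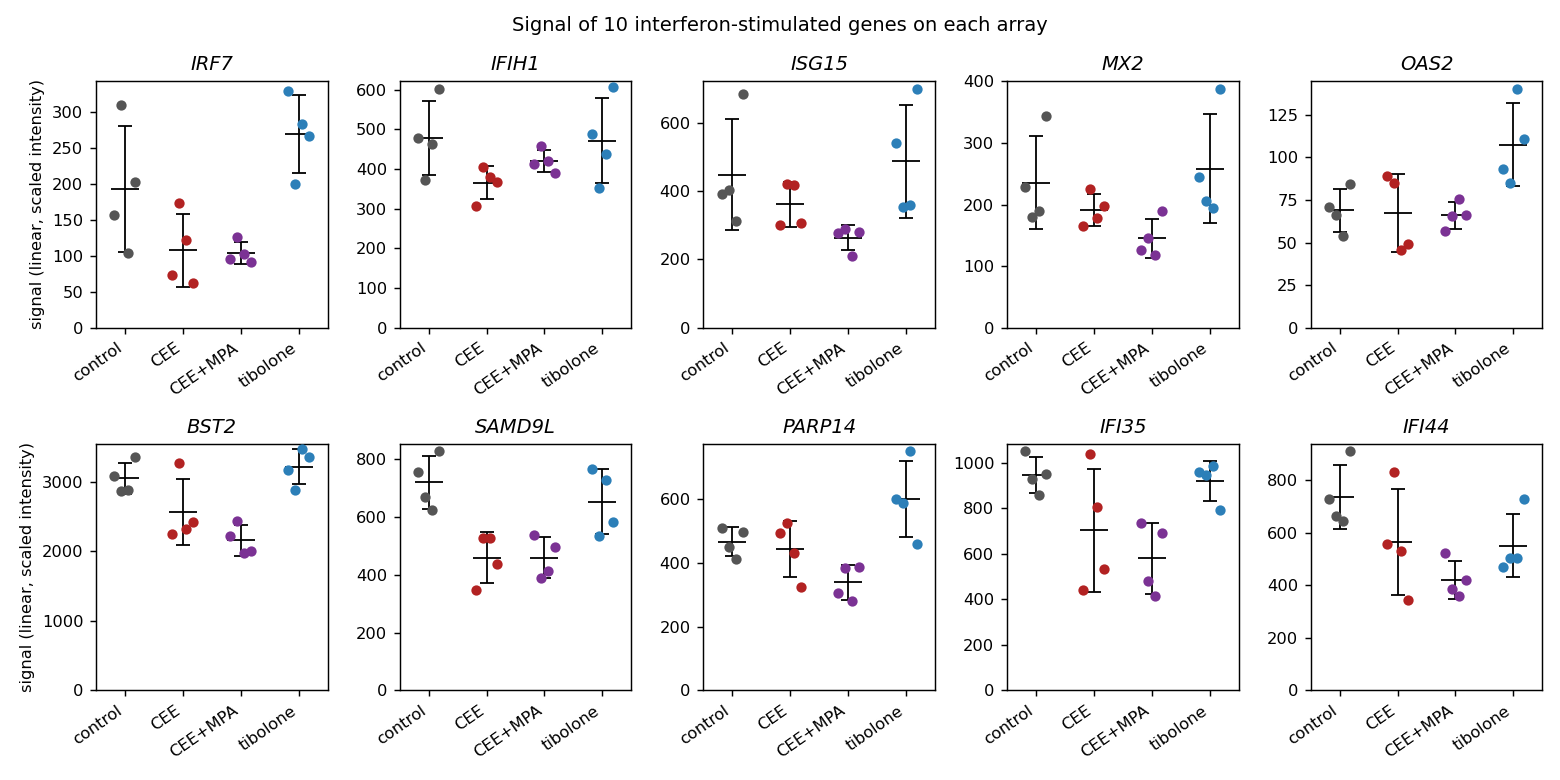
Signal (linear, scaled intensity, axis from 0) of the brightest tested probe set of each of the 10 genes; every point is 1 array, and the black marks are the mean and standard deviation of 4 animals. For BST2 the 4 CEE+MPA arrays lie between 1967 and 2440, below all control and tibolone arrays.

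IRF7 is the transcription factor that amplifies type I interferon production and is itself induced by interferon. Its signal (probe set MmugDNA.29625.1.S1_at) was 156, 310, 104 and 202 on the 4 control arrays and 329, 199, 283 and 266 on the tibolone arrays. It was 73.5, 173, 122 and 61.5 on the CEE arrays and 95.2, 126, 103 and 91.3 on the CEE+MPA arrays. The tibolone arrays were all above the CEE and the CEE+MPA arrays and overlapped the controls. The group means were 193 ± 88.0 for control, 108 ± 50.9 for CEE, 104 ± 15.4 for CEE+MPA and 269 ± 53.6 for tibolone (SD, n = 4). With tibolone the level was 236% of that with CEE+MPA (log2 fold change 1.24 ± 0.30, 95% interval 0.61 to 1.87, limma adjusted p = 0.0285). When the model held the spike-in split as a block, the difference was 1.16 and did not pass (limma adjusted p = 0.0673). All 4 tibolone arrays were in the high set. IRF7 also had the widest spread within groups among the 10 genes, with a standard deviation of 0.45 on the log2 scale against a median of 0.27 over all genes. It was the only one of the 15 probe sets that passed the overall test for any difference among the 4 groups (limma F, adjusted p = 0.0466), where 3.02% of all probe sets passed. IRF7 kept that call without control replicate 3, CEE replicate 2 or tibolone replicate 4, and lost it without any 1 of the other arrays.

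A second IRF7 probe set gave a smaller difference in the same direction. Its means were 95.6 ± 6.51, 76.5 ± 13.8, 76.0 ± 9.23 and 115 ± 59.8 in the control, CEE, CEE+MPA and tibolone groups (SD, n = 4). The tibolone mean rested on replicate 3, at 204, while the other tibolone arrays lay at 74.8, 84.9 and 97.0. Its difference between tibolone and CEE+MPA was 0.42 ± 0.22 (limma adjusted p = 0.238).

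IFIH1 encodes MDA5, a cytoplasmic sensor of long double-stranded RNA. Its signal (MmugDNA.36297.1.S1_at) was 479, 373, 462 and 601 in controls, 308, 406, 380 and 368 with CEE, 414, 458, 421 and 391 with CEE+MPA, and 489, 352, 439 and 607 with tibolone. All groups overlapped. The sensor differed least between CEE+MPA and tibolone among the 10 genes, at 0.13 ± 0.17 (95% interval -0.22 to 0.49, limma adjusted p = 0.658).

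ISG15 is a ubiquitin-like protein that is joined to other proteins during the interferon response. Its signal (MmugDNA.17118.1.S1_at) was 393, 404, 313 and 684 in controls and 540, 354, 358 and 698 with tibolone. It was 301, 420, 418 and 308 with CEE and 276, 288, 209 and 280 with CEE+MPA. Every CEE+MPA array lay below every array of the other groups. The CEE+MPA mean of 263 ± 36.8 compared with 448 ± 162 in controls, 362 ± 66.3 with CEE and 487 ± 165 with tibolone (SD, n = 4). The control and tibolone means each held 1 array well above the rest, replicate 4 in both groups. No ISG15 difference passed the test: it was -0.69 ± 0.24 against control (limma adjusted p = 0.0987), -0.43 ± 0.24 against CEE (adjusted p = 0.702) and, for tibolone against CEE+MPA, 0.80 ± 0.24 (adjusted p = 0.0608).

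MX2 is a dynamin-like GTPase that blocks the nuclear entry of retroviruses and herpesviruses. Its signal (MmuSTS.1927.1.S1_at) was 229, 180, 190 and 344 in controls, 165, 226, 178 and 197 with CEE, 127, 145, 118 and 190 with CEE+MPA, and 244, 206, 195 and 387 with tibolone. As for ISG15, replicate 4 was the highest array of both the control and the tibolone group. The CEE+MPA mean was 145 ± 32.2 and the control mean 236 ± 74.9 (SD, n = 4; log2 fold change -0.62 ± 0.23, limma adjusted p = 0.104). A second, dimmer MX2 probe set was above the filter signal on 9 of 16 arrays. Its 4 CEE+MPA arrays, at 50.6, 41.0, 35.8 and 38.4, lay below all control and tibolone arrays. The control mean of that probe set was 93.9 ± 46.0 (SD, n = 4; log2 fold change of CEE+MPA against it -0.86 ± 0.26, limma adjusted p = 0.0622).

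OAS2 makes the short RNA-like chains that activate RNase L when double-stranded RNA is present. It was near the lower limit of the filter, above it on 12 of 16 arrays. Its signal (MmugDNA.8486.1.S1_at) was 71.1, 65.9, 54.1 and 84.4 in controls, 88.9, 85.0, 45.4 and 49.3 with CEE, 56.7, 65.3, 75.5 and 66.1 with CEE+MPA, and 93.2, 84.9, 140 and 111 with tibolone. All tibolone arrays were above all CEE+MPA arrays and, by the narrow margin of 84.9 against 84.4, above all control arrays. The control and CEE+MPA means, 68.9 ± 12.6 and 65.9 ± 7.69 (SD, n = 4), differed by -0.04 ± 0.19 on the log2 scale (95% interval -0.46 to 0.37, limma adjusted p = 0.92). The tibolone mean was 107 ± 24.2 (SD, n = 4), which differed from control by 0.53 ± 0.19 on the log2 scale (limma adjusted p = 0.873). A further OAS2 probe set was never above the filter signal, with values from 0.926 to 27.3, and was not tested.

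BST2, or tetherin, is a membrane protein that holds budding virus particles on the cell surface. Its signal (MmugDNA.41833.1.S1_at) was 3085, 2865, 2883 and 3350 in controls and 3162, 2883, 3462 and 3347 with tibolone. It was 2243, 3269, 2325 and 2423 with CEE and 2220, 2440, 1967 and 1999 with CEE+MPA. The CEE+MPA arrays lay below all control and all tibolone arrays, and of the CEE arrays only replicate 2 reached the range of the controls. BST2 fell to 70.8% of control with CEE+MPA (2157 ± 220 against 3045 ± 226, SD, n = 4; log2 fold change -0.50 ± 0.14, 95% interval -0.79 to -0.21, limma adjusted p = 0.0421). With tibolone, at 3213 ± 253 (SD, n = 4), it was 149% of the level with CEE+MPA (log2 fold change 0.57 ± 0.14, 95% interval 0.28 to 0.86, limma adjusted p = 0.028). It varied least within groups among the 10 genes, with a standard deviation of 0.16 on the log2 scale. Its second probe set gave -0.56 ± 0.20 (limma adjusted p = 0.0974) and 0.48 ± 0.20 (adjusted p = 0.146) in the same comparisons.

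SAMD9L is a cytoplasmic protein that restricts poxviruses and, when overactive, slows cell growth. Its signal (MmugDNA.17279.1.S1_at) was 757, 669, 626 and 830 in controls and 765, 533, 730 and 584 with tibolone. It was 346, 529, 527 and 437 with CEE and 538, 388, 415 and 498 with CEE+MPA. Every array of both estrogen groups lay below every control array. SAMD9L fell to 64.4% of control with CEE+MPA (460 ± 70.0 against 720 ± 91.3, SD, n = 4; log2 fold change -0.63 ± 0.17, limma adjusted p = 0.0393). The CEE mean was also 460, with a standard deviation of 87.2. Its difference from control was -0.64 ± 0.17, which did not pass in that comparison (limma adjusted p = 0.178, unadjusted p = 0.00169). The difference between CEE+MPA and CEE was 0.01 ± 0.17 (95% interval -0.35 to 0.37). The other 2 SAMD9L probe sets were above the filter signal on 3 and 0 arrays and were not tested.

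PARP14 adds ADP-ribose to proteins and takes part in interferon and interleukin signalling. Its signal was 509, 449, 410 and 497 in controls, 492, 525, 431 and 323 with CEE, 306, 382, 279 and 387 with CEE+MPA, and 599, 586, 749 and 459 with tibolone. The CEE+MPA arrays lay below all control and all tibolone arrays. With tibolone PARP14 stood at 172% of its level with CEE+MPA (598 ± 119 against 338 ± 54.3, SD, n = 4; log2 fold change 0.79 ± 0.18, 95% interval 0.41 to 1.16, limma adjusted p = 0.0233). Against control the differences were -0.45 ± 0.18 for CEE+MPA (limma adjusted p = 0.13) and 0.33 ± 0.18 for tibolone (adjusted p = 0.913), neither past the threshold. The second PARP14 probe set gave 0.62 ± 0.21 for tibolone against CEE+MPA (limma adjusted p = 0.0829).

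IFI35 is an interferon-induced leucine zipper protein that pairs with NMI. Its signal (MmuSTS.1513.1.S1_at) was 1051, 929, 856 and 949 in controls and 957, 944, 987 and 790 with tibolone. It was 440, 1036, 804 and 531 with CEE and 733, 480, 415 and 692 with CEE+MPA. The CEE+MPA arrays lay below all control and tibolone arrays, while the CEE arrays ran from the lower range of the CEE+MPA arrays to the upper range of the controls. The CEE+MPA mean of 580 ± 156 against 946 ± 80.3 in controls (SD, n = 4) differed by -0.73 ± 0.23 on the log2 scale (limma adjusted p = 0.0722).

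IFI44 is an interferon-induced protein with antiviral activity. Its signal (MmugDNA.12892.1.S1_at) was 728, 663, 644 and 911 in controls, 558, 832, 530 and 344 with CEE, 523, 385, 358 and 419 with CEE+MPA, and 469, 504, 506 and 728 with tibolone. The CEE+MPA arrays lay below all control arrays and overlapped the tibolone arrays. IFI44 fell to 58.1% of control with CEE+MPA (422 ± 72.3 against 736 ± 122, SD, n = 4; log2 fold change -0.78 ± 0.22, 95% interval -1.26 to -0.31, limma adjusted p = 0.0489). Unlike the other members, its tibolone mean of 552 ± 119 (SD, n = 4) was closer to the CEE mean of 566 than to the control mean, at -0.41 ± 0.22 against control (limma adjusted p = 0.913). Whether IFI44 differs from the other genes in this was not tested.

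The second IFI44 probe set did not follow the brighter one in every comparison. Its name ends in x_at, which Affymetrix uses for probe sets whose probes may also match other transcripts. Its means were 115 ± 25.4, 144 ± 18.9, 72.5 ± 5.68 and 139 ± 60.3 in the control, CEE, CEE+MPA and tibolone groups (SD, n = 4). With CEE+MPA all 4 arrays, from 66.9 to 77.8, were below all others, and the difference from CEE was -0.85 ± 0.21 (limma adjusted p = 0.279). The pair of IFI44 probe sets had the same sign in 3 of 6 comparisons, against 6 for PARP14 and 5 each for BST2, MX2 and IRF7. Over 16 arrays the Pearson correlation of the pair was 0.91 for PARP14, 0.84 for BST2, 0.83 for MX2, 0.58 for IFI44 and 0.51 for IRF7, as a description of arrays that share their groups. By this correlation the MX2, BST2 and PARP14 pairs were more alike over the arrays than the IRF7 and IFI44 pairs.

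**Figure D2:**
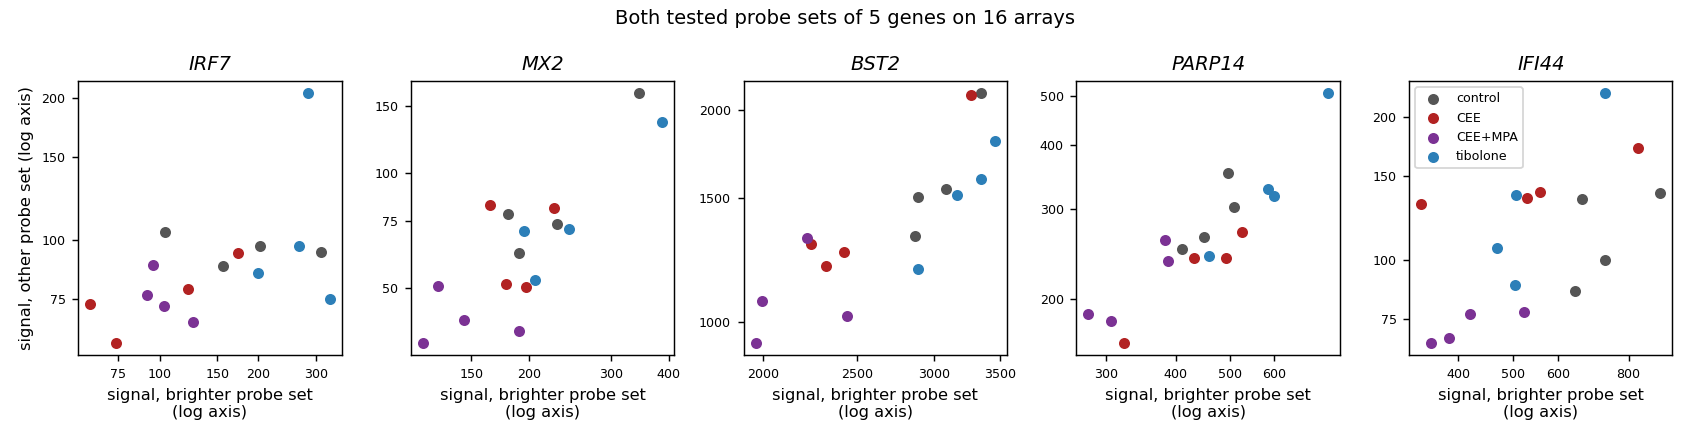
Signal of the brighter tested probe set (horizontal, log axis) against that of the other tested probe set (vertical, log axis) for the 5 genes with 2 tested probe sets; each point is 1 of 16 arrays, coloured by group. The PARP14 points lie close to a line (r = 0.91), while in the IRF7 panel tibolone replicate 3 stands apart at 204 on the vertical axis.

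The question of the comparison of CEE with control is what the estrogens alone did to these genes. All 10 genes had a mean below control, from -0.06 for OAS2 to -0.75 for IRF7, with a median of -0.31 over the 10 genes against 0.01 over all genes. None of the 15 probe sets passed the test, where 0.0732% of all probe sets passed in either direction. At an unadjusted limma p under 0.05, 3 of 15 were lower (IRF7, IFIH1 and SAMD9L), where 6.85% of all probe sets were. Only SAMD9L had all CEE arrays below all control arrays, where 4.74% of all probe sets did. The IRF7 difference, -0.75 ± 0.30, had a 95% interval from -1.38 to -0.13 (limma adjusted p = 0.322), and its arrays overlapped. CEE replicate 2 was the highest CEE array in 9 of the 10 genes. OAS2 and PARP14 had small differences here, -0.06 and -0.09, whose sign changed between the spike-in sets.

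CEE+MPA against control asks what the estrogen and progestin together did. BST2, SAMD9L and IFI44 fell, so that 3 of 15 probe sets passed, where 4.38% of all probe sets passed in that direction. The median over the 10 genes was -0.63, against 0.01 over all genes, and all 10 lay below 0, where 48.6% of all genes did. At an unadjusted limma p under 0.05, 11 of 15 were lower, from 8 genes, where 13.7% of all probe sets were. The arrays did not overlap for 9 of 15, from 7 genes, where 9.42% of all probe sets were lower without overlap. Since the members were chosen with earlier results of these data known, nothing particular to them is read from these counts. The sensor IFIH1 and OAS2 stood nearest to 0, at -0.16 ± 0.17 and -0.04 ± 0.19. Within the low and the high spike-in set the differences were -0.56 and -0.44 for BST2, -0.47 and -0.80 for SAMD9L, and -0.69 and -0.87 for IFI44. No member passed within either set, with 2 arrays a group. Of all probe sets 0 passed within the low set, so the absence of member calls there holds for every probe set, and 4.79% within the high set. All 3 calls were lost when any 1 control array or CEE+MPA replicate 2 or 3 was left out, and SAMD9L alone passed without CEE+MPA replicate 1 or without replicate 4. In those fits 1.21% to 6.90% of all probe sets passed in either direction.

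**Figure D3:**
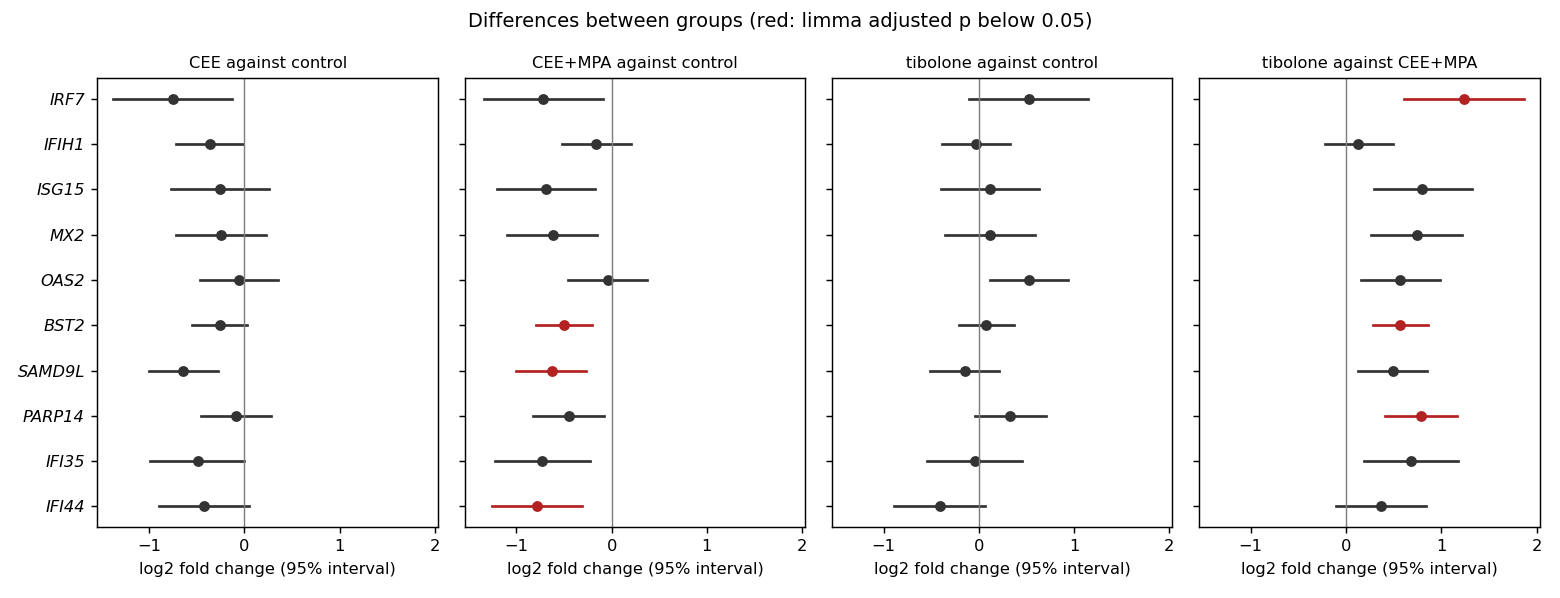
Log2 fold change of each gene's brightest tested probe set (point) with its 95% interval (line) in 4 comparisons; red marks a limma adjusted p below 0.05. CEE+MPA against control has 3 red genes (BST2, SAMD9L and IFI44), and tibolone against CEE+MPA has 3 (IRF7, BST2 and PARP14).

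Tibolone against control showed no member past the test, where 0.0244% of all probe sets passed in either direction. The 10 genes had a median of 0.10, with 6 above 0 and 4 below. OAS2 was the only 1 of 15 probe sets that was higher at an unadjusted limma p under 0.05 (2.94% of all probe sets) and the only 1 with all tibolone arrays above all controls (1.90% of all probe sets). The 95% intervals, not adjusted for the number of tests, ran from -0.21 to 0.37 for BST2, the gene with the smallest spread. They ran from -0.10 to 1.15 for IRF7 and from -0.89 to 0.06 for IFI44. That of OAS2, from 0.12 to 0.94, lay above 0.

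The addition of MPA to the same dose of CEE gave no member past the test, where 0.0209% of all probe sets passed in either direction. The 10 genes had a median of -0.23, with 6 below 0 and 4 above. IRF7 (0.04 ± 0.30), SAMD9L (0.01 ± 0.17) and OAS2 (0.02 ± 0.19) lay nearest to 0, while ISG15 (-0.43 ± 0.24), MX2 (-0.38 ± 0.23) and PARP14 (-0.36 ± 0.18) had the lowest values. At an unadjusted limma p under 0.05, 1 of 15 was lower, the second IFI44 probe set, where 5.27% of all probe sets were. That probe set and ISG15 were the 2 of 15 with all CEE+MPA arrays below all CEE arrays, where 3.17% of all probe sets were.

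Tibolone and CEE differ in compound and in dose, so the groups are compared as treated. No member passed the test between them, where 0.00697% of all probe sets passed in either direction. IRF7 had the highest value, at 242% of its level with CEE (log2 fold change 1.28 ± 0.30, 95% interval 0.65 to 1.90, limma adjusted p = 0.199, unadjusted p = 0.000539). At an unadjusted limma p under 0.05, 6 of 15 probe sets were higher, where 6.22% of all probe sets were. IRF7 and SAMD9L were the 2 of 15 whose tibolone arrays were all above all CEE arrays, where 2.83% of all probe sets were. The median over the 10 genes was 0.40, with IFI44 at 0.01 ± 0.22.

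Tibolone against CEE+MPA had the highest member median of the 6 comparisons, 0.63 over the 10 genes against 0.01 over all genes. IRF7, BST2 and PARP14 were higher, 3 of 15, where 3.78% of all probe sets passed in that direction. All 10 genes were above 0. At an unadjusted limma p under 0.05, 12 of 15 were higher, from 9 genes, where 14.6% of all probe sets were. The tibolone arrays were all higher for 9 of 15, from 8 genes, where 7.56% of all probe sets were. Here too nothing particular to the members is read from the counts, given how they were chosen. SAMD9L, which fell against control with CEE+MPA, stood at 0.49 ± 0.17 here (limma adjusted p = 0.0923). Among the arrays of the high spike-in set, the only set with tibolone, the differences were 1.12 for IRF7, 0.55 for BST2 and 0.82 for PARP14. No member passed there (lowest limma adjusted p of the 3, 0.0634), where 1.96% of all probe sets passed. None passed without CEE+MPA replicate 1 or 3 or without tibolone replicate 2 or 3, and 1, PARP14, passed without CEE+MPA replicate 4. In those fits 0.728% to 3.62% of all probe sets passed in either direction. This comparison and that of CEE+MPA with control share the CEE+MPA arrays.

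The 10 genes were not uniform among animals of a group. Averaged over the 10 genes, after subtraction of each gene's mean, the log2 level was 0.20 ± 0.21 in controls, -0.16 ± 0.27 with CEE, -0.34 ± 0.10 with CEE+MPA and 0.30 ± 0.15 with tibolone (SD, n = 4). CEE+MPA was the most even group, from -0.49 to -0.26, and CEE the most uneven, from -0.41 to 0.21. Control replicate 4 was the highest control array in 7 of 10 genes, and control replicate 3 the lowest in 7. CEE+MPA replicate 3 was the lowest of its group in 6 genes and the lowest of all 16 arrays in 5. Each gene's correlation with the mean of the other 9 over 16 arrays ran from 0.53 for OAS2 and 0.57 for IFIH1 to 0.83 for ISG15 and 0.91 for BST2. With the group means removed it ran from 0.33 for OAS2 to 0.74 for BST2, so that animals of 1 group also differed along the same genes. These correlations describe 16 arrays, in which every array contributes to every gene.

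**Figure D4:**
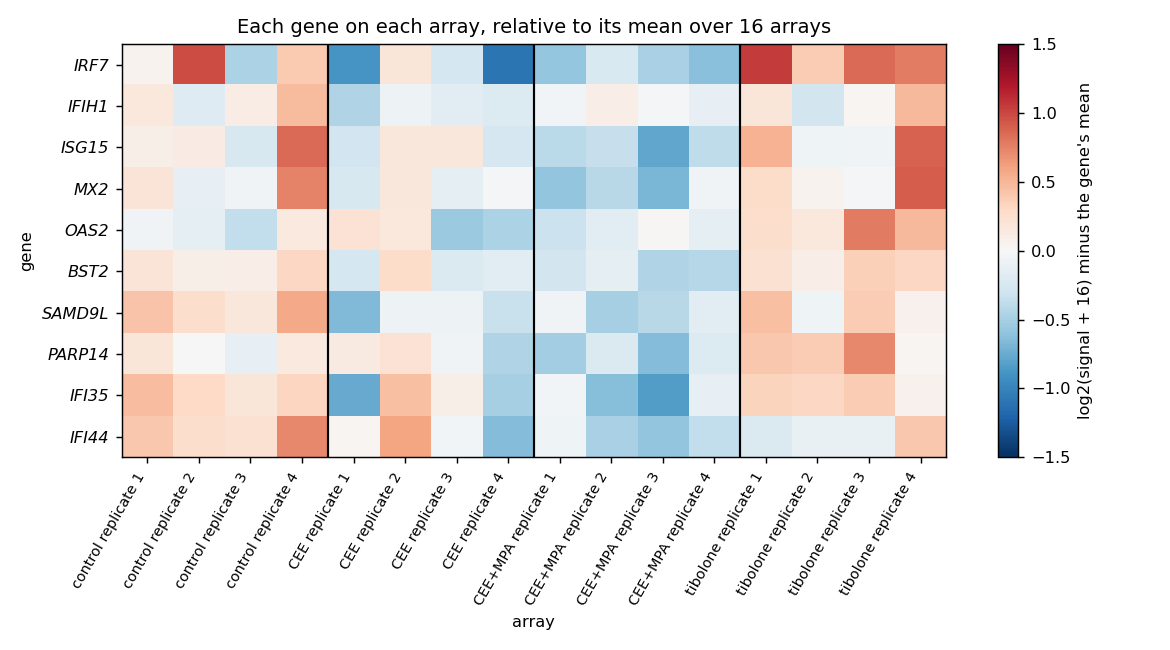
Log2(signal + 16) minus the gene's mean over 16 arrays (colour, red above and blue below) for 10 genes (rows) and 16 arrays (columns, black lines between groups). The CEE+MPA columns are mostly blue, CEE replicate 2 is the reddest CEE column, with a mean of 0.21, and IRF7 has the strongest colours.

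Immune cell markers were measured on the same arrays. The mean of 15 tested of 20 macrophage and monocyte markers was 0.31 ± 0.14 in controls, -0.31 ± 0.27 with CEE, -0.15 ± 0.21 with CEE+MPA and 0.15 ± 0.41 with tibolone (centred log2, SD, n = 4). CEE was thus lowest in the macrophage list, while CEE+MPA was lowest in the interferon-stimulated genes. Against control with CEE+MPA, 1 of the 15, MS4A7, passed as lower, where 4.38% of all probe sets did. With CEE 13 of the 15 markers had a mean below control, and with CEE+MPA 12. The summed signal of the 15 ran from 36433 to 42332 in controls, 36067 to 39198 with CEE, 38059 to 44583 with CEE+MPA and 35958 to 45067 with tibolone. The group mean of that sum was highest with CEE+MPA, at 42027 ± 3010, and lowest with CEE, at 37475 ± 1570 (SD, n = 4). T and NK cell markers, 13 tested of 23, had means of 0.06 ± 0.08, -0.09 ± 0.25, -0.09 ± 0.22 and 0.12 ± 0.25 in the same order of groups. Their summed signals ran from 9047 to 11504, 8625 to 16296, 8937 to 20745 and 9136 to 11981. Of these 13, only KLRD1 passed in any comparison. It was higher with CEE+MPA than in controls (1.95% of all probe sets) and lower with tibolone than with CEE+MPA (2.56%). With CEE+MPA 10 of the 13 had a mean below control and 3 above. Of 8 markers of plasmacytoid dendritic cells, the classic producers of type I interferon, 3 were tested and 5, LILRA4 and CLEC4C among them, were not analysed here. Their means lay between -0.14 ± 0.13 with CEE+MPA and 0.09 ± 0.07 with CEE, and their summed signals were 1437 to 1743, 1430 to 1936, 1223 to 1905 and 1290 to 1799.

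With the macrophage mean as a covariate no member passed in any comparison. Over all probe sets, 29 then passed for CEE+MPA against control (0.101%) and 216 for tibolone against CEE+MPA (0.753%). The member differences for CEE+MPA against control were then -0.41 for BST2, -0.40 for SAMD9L and -0.62 for IFI44, and those for tibolone against CEE+MPA were 1.11 for IRF7, 0.52 for BST2 and 0.63 for PARP14. With the T and NK cell mean as a covariate they were -0.42, -0.55 and -0.70, and 1.14, 0.46 and 0.65, also with no member past the test, where 2.98% and 1.38% of all probe sets passed in those comparisons. Without the 4 arrays of high skeletal muscle signal they were -0.51, -0.69 and -0.89, and 1.36, 0.61 and 0.58, with none past the test. In that fit 3.41% of all probe sets passed for CEE+MPA against control and 0 for tibolone against CEE+MPA, so the absence of member calls in the latter holds for every probe set. Stromal lists differed in mean as well. The fibroblast mean was 0.40 ± 0.17 in controls, -0.15 ± 0.13 with CEE, -0.40 ± 0.22 with CEE+MPA and 0.14 ± 0.18 with tibolone, from 12 tested of 14. Endothelial markers, 11 tested of 14, had 0.19 ± 0.25, -0.14 ± 0.11, -0.27 ± 0.07 and 0.21 ± 0.30. Their summed signals were 62948 to 77461, 50461 to 62733, 49656 to 62575 and 61907 to 66293 for fibroblasts, and 8583 to 12752, 7161 to 8816, 6366 to 7470 and 8643 to 12626 for endothelium. With CEE+MPA against control 5 of the 12 fibroblast markers fell (LUM, DPT, OGN, FBLN1 and PI16) and 2 of the 11 endothelial markers (ERG and RAMP2). So did 2 of 5 tested basal and myoepithelial markers (TRIM29 and ACTG2) and 2 of 10 tested adipocyte markers (CFD and RETN). Of all probe sets, 4.38% fell in this comparison and 1.95% rose. Whether the marker calls hold with an array left out was not tested. The basal mean was 0.18 ± 0.09 in controls, 0.11 ± 0.11 with CEE, -0.51 ± 0.35 with CEE+MPA and 0.22 ± 0.22 with tibolone (SD, n = 4). The adipocyte mean was 0.34 ± 0.51, -0.27 ± 0.58, -0.30 ± 0.60 and 0.23 ± 0.85 in the same order. Of the 16 luminal markers, KRT19 and SPDEF rose, and the luminal mean was -0.11 ± 0.10, 0.15 ± 0.06, -0.08 ± 0.07 and 0.04 ± 0.30. The luminal sums were 49064 to 52377, 56839 to 62443, 58973 to 71775 and 38260 to 64828. By that sum every CEE and CEE+MPA array lay above every control array. A sum weighs the brightest probe sets most. Of the 16 luminal markers, 12 had a mean above control with CEE and 4 below, and with CEE+MPA 9 above and 7 below. In the same order the basal sums were 4938 to 5435, 4253 to 5646, 2958 to 4494 and 4299 to 6099. The adipocyte sums were 25176 to 42616, 17975 to 32876, 21218 to 36473 and 16942 to 46555. The part of these cell types in the member differences was not tested.

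**Figure D5:**
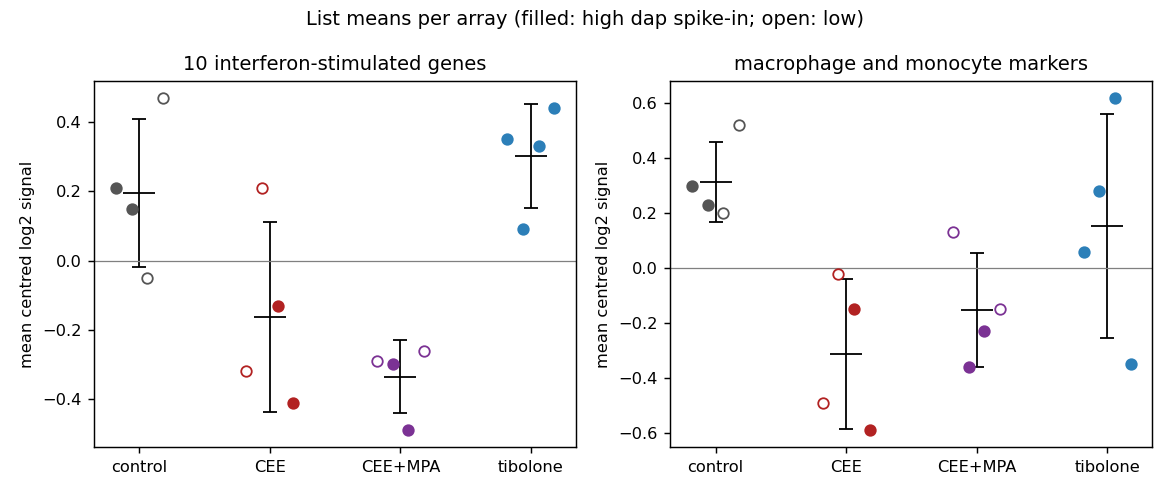
Mean centred log2 signal per array of the 10 interferon-stimulated genes (left) and of 15 macrophage and monocyte markers (right); each point is 1 array, filled for the high and open for the low dap spike-in set, and black marks are the mean and standard deviation of 4 animals. The CEE+MPA arrays lie between -0.49 and -0.26 on the left and between -0.36 and 0.13 on the right.

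The rest of the interferon pathway was read from 8 lists of 169 symbols, with the members left out, of which 90 genes were tested. No interferon gene was tested: of 11 ligand symbols 4 were on the array, none above the filter. The receptors tested, IFNAR2 and IL10RB, had -0.47 ± 0.27 and -0.39 ± 0.17 with CEE+MPA against control, neither past the test. Of the 90 genes, none passed for CEE against control, tibolone against control, CEE+MPA against CEE or tibolone against CEE. For CEE+MPA against control 4 of 90 fell and 1 rose, and for tibolone against CEE+MPA 7 were higher and 2 lower. Of all probe sets, 4.38% fell and 1.95% rose in the former, and 3.78% were higher and 2.56% lower in the latter, so nothing particular to the pathway is read from the counts. The medians over the 90 genes were -0.19 and 0.27 in those comparisons, against -0.63 and 0.63 over the 10 members. Members and lists were chosen with earlier results of these data known, so nothing particular to the members is read from these medians. The count of 4 that fell was 0 when control replicate 2 or CEE+MPA replicate 3 was left out, and 1 when control replicate 1 or CEE+MPA replicate 2 was. The count of 7 was 1 without CEE+MPA replicate 3 or tibolone replicate 2 or 3, and both counts changed with the macrophage mean as a covariate, to 0 and 2. Without the arrays of high skeletal muscle signal they were 1 and 0. Within the low spike-in set 0 fell and within the high set 3, the count of 7 was 1 within the high set, and it was 2 with the sets as a block.

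The genes named below are those that passed with all 16 arrays. Values in parentheses in what follows are the log2 fold change with its standard error and the limma adjusted p. Of 8 tested kinases and transcription factors, JAK2, a kinase used by the interferon gamma receptor among others, fell with CEE+MPA from 2270 ± 215 to 1167 ± 309 (SD, n = 4; log2 fold change -0.99 ± 0.22, limma adjusted p = 0.0213). It was higher with tibolone than with CEE+MPA (0.92 ± 0.22, limma adjusted p = 0.0312), as was IRF1, a transcription factor induced by interferon gamma (0.79 ± 0.20, 0.0321). Of 10 tested sensors and adaptors, STING1, the adaptor of DNA sensing, fell with CEE+MPA (-0.87 ± 0.22, 0.0311). The RNA sensor TLR7 was lower with tibolone than with CEE+MPA (-0.74 ± 0.18, 0.0323).

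Of 32 tested antiviral effectors 1 fell and 1 rose with CEE+MPA. IFITM1, which blocks virus entry at membranes, fell from 11563 ± 1107 to 6218 ± 1552 (SD, n = 4; log2 fold change -0.92 ± 0.20, limma adjusted p = 0.0177), and was 11583 ± 1654 with tibolone. ISG20, an exonuclease, rose from 1437 ± 528 to 2927 ± 210 (SD, n = 4; log2 fold change 1.09 ± 0.26, limma adjusted p = 0.0249), with all CEE+MPA arrays above all control arrays. ISG20 carries the name of an interferon-stimulated gene and went the opposite way to the 10 members. The IFITM1, ISG20 and TLR7 probe sets carry the symbols of the platform annotation and were not checked against cynomolgus transcripts. The name of the IFITM1 probe set ends in s_at, and whether its probes also match related transcripts was not tested. Between tibolone and CEE+MPA both differed too, IFITM1 higher by 0.92 ± 0.20 (0.0223) and ISG20 lower, at -1.13 ± 0.26 (0.0244).

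The enzymes of ISG15 conjugation had 4 tested genes, and UBE2L6, the conjugating enzyme that carries ISG15, was higher with tibolone than with CEE+MPA (0.94 ± 0.27, limma adjusted p = 0.0468). Of 26 tested genes of the interferon gamma response and antigen presentation, NLRC5, an activator of MHC class I genes, fell with CEE+MPA (-0.75 ± 0.21, 0.0473). It was higher with tibolone than with CEE+MPA (0.87 ± 0.21, 0.0308), as was the peptide transporter subunit TAP2 (0.59 ± 0.14, 0.0315). Of 8 tested inhibitors of the pathway, SOCS1, which blocks JAK kinases, was higher with tibolone than with CEE+MPA (370 ± 71.5 against 179 ± 45.7, SD, n = 4; log2 fold change 0.99 ± 0.18, limma adjusted p = 0.0119).

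Several members have relatives or other interferon-induced genes beside them in the cynomolgus RefSeq gene table, which lists all 10. MX1 lies within 2 genes of MX2, OAS1 and OAS3 of OAS2, SAMD9 of SAMD9L, IFI44L of IFI44, and PARP15 and DTX3L of PARP14. DTX3L, a ubiquitin ligase, is a neighbour of PARP14 and no relative. SAMD9, IFI44L and PARP15 were not analysed here. With CEE+MPA against control, MX1 had -0.58 ± 0.37 (limma adjusted p = 0.364), OAS1 -0.20 ± 0.16 (adjusted p = 0.477), OAS3 -0.25 ± 0.20 (adjusted p = 0.47) and DTX3L -0.36 ± 0.16 (adjusted p = 0.17). None of these passed, and of them only DTX3L had all CEE+MPA arrays below all controls. Probes for near-identical relatives could share signal, and how far these do was not tested.

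The 5 genes most like the mean of the 10 members, of 10442 others, were chosen by Pearson correlation over 16 arrays. They were UBE2L6 (r = 0.91, Spearman 0.86), GNPAT (0.90 and 0.88), UBD (0.88 and 0.88), TTLL6 (0.88 and 0.73) and IRF1 (0.86 and 0.85). Without CEE+MPA replicate 3 and control replicate 4, the arrays farthest from the median, r was 0.91, 0.87, 0.86, 0.88 and 0.85. UBE2L6 and IRF1 are also in the pathway lists, UBD is a ubiquitin-like protein induced by cytokines, GNPAT makes ether lipids in peroxisomes, and TTLL6 modifies tubulin. These correlations describe arrays that share 4 groups, were ranked over many genes and are given without a test.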

How the data were processed

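Total RNA from mammary tissue of 16 animals was extracted with Tri-reagent and an RNeasy kit, labelled with biotin and hybridized to 1 array per animal, per the labels. The deposited values are linear signal intensity per probe set. Computed from them, the mean of each array after trimming 2% of values at each end was 250.02 (15 arrays) or 250.01, from which a scaling of each array is inferred, since no source used here states it. GCOS and Affymetrix Expression Console are named per the submitters' processing notes, and the signal algorithm is not given in the sources used here. Probes were designed for rhesus macaque. The annotation named 1 symbol or more for 25330 probe sets (361 with several) and none for 27535.

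The 99 control probe sets were left out. Tests were run on probe sets above the table's median signal, 60.2, on 4 or more arrays. Signals were transformed as log2(signal + 16), which understates fold changes of dim genes. A limma model with 4 group means was fitted to all 16 arrays and 28704 probe sets, with 6 comparisons and an overall F test, each adjusted by Benjamini and Hochberg at 0.05. The tested probe set of highest mean stood for its gene, and all members were named with all their probe sets. Pathway genes were named where they passed, at most 6 per list, and the 5 genes most like the members by correlation. The members and lists were chosen with earlier results of these data known. Replicate numbers follow accession order, and each is a separate animal per the labels. Alternatives covered normalization, filter, offset, prior, weights, samples fitted, probe sets per gene, spike-in level, RNA quality, cell markers and each array left out. The model was checked on simulated data. Software was R 4.3.3 with limma 3.58.1, and figures were drawn in Python 3.11.15 by matplotlib 3.10.9.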

Additional observations from a re-analysis of the deposited data

Results flagged for a closer look

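In 60 sets of 4 arrays, each a tested member probe set in 1 group, 2 held an array far from the other 3 by Dixon's ratio at 95%. Chance gives about 1 in 20, or 3 of 60. ISG15 was lowest on CEE+MPA replicate 3, at 209, where the other arrays of the group lay between 276 and 288, a gap of 0.868 of the range. The second BST2 probe set was highest on CEE replicate 2, at 2100, where the others lay between 1201 and 1290, a gap of 0.872 of the range.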

How the results depend on the processing

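Counts are of the 15 tested member probe sets, but of 10 with 1 probe set per gene, 9 with the 75th percentile filter and 18 with no filter, and leaving out an array means 1 of the groups compared. The 4 comparisons with 0 calls, CEE and tibolone against control and CEE+MPA and tibolone against CEE, kept 0 under every alternative run. For CEE+MPA against control the 3 calls became 1 with quantile normalization, median centring or a skeletal muscle covariate. There 6.34% of all probe sets passed in the fit used above, and 4.61%, 6.25% and 5.83% with these changes in that order. They became 0 with no filter, with a macrophage or a T and NK cell covariate, without the arrays of high skeletal muscle signal and within the low or the high spike-in set, and 8 with array weights. Leaving out each array gave 0 to 1, where 1.21% to 6.90% of all probe sets passed. For tibolone against CEE+MPA the 3 calls became 1 with only the groups compared and 5 with 1 probe set per gene. Of all probe sets fitted, 6.34% passed in the fit used above, and 0.749% and 9.38% with these changes in that order. The 3 calls became 0 with a macrophage or a T and NK cell covariate, without the arrays of high muscle signal and within the high spike-in set, and 0 to 4 with each array left out. Of all probe sets 0.753%, 1.38%, 0% and 1.96% passed in these fits in that order, and 0.728% to 11.6% with an array left out. The 1 call of the overall test became 0 with median centring, no filter, an offset of 1, the spike-in sets as a block, a GAPDH ratio, muscle, macrophage, T and NK cell or luminal covariate, and without the arrays of high muscle signal. In these fits from 0.174% (macrophage covariate) to 4.25% (GAPDH ratio) of all probe sets passed, against 3.02% in the fit used above. The 1 call became 3 with a filter at the 75th percentile, an offset of 64, a trended prior or 1 probe set per gene, 5 with array weights, and 0 to 4 with each array left out. Of all probe sets fitted, 3.94% to 7.71% passed in the fits with 3 calls, 9.21% with array weights and 0.634% to 7.40% with an array left out. IRF7, the gene of that call, was not tested with the 75th percentile filter, and with quantile normalization the 1 call was BST2. The causes were not tested, beyond fewer arrays where arrays were left out. The overall test with only the groups compared was not run. No paired analysis was possible because replicate numbers were assigned here and every animal had 1 treatment.

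Over 28 alternatives the CEE+MPA difference from control was -0.58 to -0.41 for BST2 (called in 11, adjusted p 0.0235 to 0.419), -0.80 to -0.40 for SAMD9L (called in 15, 0.0157 to 0.561) and -0.89 to -0.62 for IFI44 (called in 9, 0.024 to 0.473). The 6 differences that passed had 164 alternative values, of which 80 lost the call and 0 changed sign. The 19 others with an unadjusted p under 0.05 had 513, of which 8 gained a call and 0 changed sign. Of the 35 other member differences, 14 changed sign under some alternative. Scaling changed the balance of all calls: 69.2% of calls for CEE+MPA against control were lower, and 50.2% with median centring, and for tibolone against CEE+MPA 40.3% and 72.4%. Of the 90 pathway genes, those that fell with CEE+MPA numbered 4, and 0 to 12 under alternatives, and those higher with tibolone than with CEE+MPA 7, and 0 to 10. The values within spike-in sets were chosen after seeing the data. Dim probe sets (OAS2, the second MX2) carry the least signal over the filter.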
